A study of Mus musculus with 27 samples.

Results

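The 9 genes described here bind, carry, make or break down retinoic acid: the receptors Rara, Rarb and Rarg, the cellular binding proteins Crabp1 and Crabp2, the enzymes Aldh1a2 and Dhrs3, and the hydroxylases Cyp26a1 and Cyp26b1. They were chosen by name, and all 9 were among the 25209 genes listed in each of 8 deposited RNA-seq tables. RNA came from V6.5 cells, a mouse embryonic stem cell line, either unedited (WT) or carrying a transcription terminator inserted into Zfp512b after its exon 3. KO4 and KO8 are a single clone each, and no WT cells that went through the same editing and selection were compared. The 27 libraries comprised 3 each of WT, KO4 and KO8 in the naive state (Day 0, 2iLIF medium) and 2 each in the primed state (Day 2), in cardiomyocyte cultures (CM, Day 7.5, hanging drops with vitamin C) and in neural progenitor cultures (NPC, Day 10). The NPC cultures of all 3 genotypes received 5 µM retinoic acid, and no retinoic acid is given for the other stages.

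Retinoic acid is made from vitamin A. Retinol is oxidised to retinal, Aldh1a2 oxidises retinal to retinoic acid, and Dhrs3 reduces retinal back to retinol. Crabp1 and Crabp2 bind retinoic acid in the cytoplasm, and Crabp2 is known to deliver it to the receptors. The receptors bind DNA as heterodimers with an RXR partner, and the Cyp26 enzymes hydroxylate retinoic acid for removal. Rarb, Cyp26a1 and Dhrs3 are textbook targets of the receptors, so that the pathway feeds back on itself, and retinoic acid patterns the hindbrain and spinal cord as well as the posterior heart tube.

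The receptor site known from these genes is a direct repeat of a hexamer with a spacer of 5 bases (DR5). The hexamer AGGTCA, its relative AGTTCA, the variant GGGTCA of the first and the variant GGTTCA of the second were searched as direct repeats in any pair, on both strands and with spacers of 1, 2 or 5 bases of any kind, in RefSeq windows (GRCm38.p6) of 250 bases before to 50 bases after a transcript start. The table had 14 such windows for 8 of the 9 genes and none for Crabp2. A DR5 was present in 2 of these 14 windows, for Rarb and Cyp26a1, and in 0.0974% of all 32851 windows. The site is known from these genes, so matches in them were likely beforehand, and the share of all windows is a description only. The spacers of 1 and 2 bases gave no match for the 9 genes, against 0.222% and 0.268% of all windows. Rarb and Cyp26a1 were low in stem cells and abundant in the cultures given retinoic acid. So were Cyp26b1 and Dhrs3, whose windows held no match, and Cyp26a1 was also abundant in CM cultures, for which no retinoic acid is given. Both windows with a DR5 are shown. The 250 bases before the start are given, placed in mm9 by their sequence, and capitals mark the DR5. The Rarb bases lie at chr14:17407991-17408240 of mm9, minus strand, inside the annotated gene and before the start of a shorter transcript, and their DR5 runs from 53 to 37 bases before that start. The Cyp26a1 bases lie at chr19:37772048-37772297 of mm9, plus strand, just before the gene, and their DR5 is on the other strand, from 32 to 16 bases before the start. A match of letters is a description and does not show binding.
Rarb: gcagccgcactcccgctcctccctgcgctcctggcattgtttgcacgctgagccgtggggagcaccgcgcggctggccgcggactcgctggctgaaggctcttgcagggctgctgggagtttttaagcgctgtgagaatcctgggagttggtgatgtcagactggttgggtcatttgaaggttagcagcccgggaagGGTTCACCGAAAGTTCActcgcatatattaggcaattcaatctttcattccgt
Cyp26a1: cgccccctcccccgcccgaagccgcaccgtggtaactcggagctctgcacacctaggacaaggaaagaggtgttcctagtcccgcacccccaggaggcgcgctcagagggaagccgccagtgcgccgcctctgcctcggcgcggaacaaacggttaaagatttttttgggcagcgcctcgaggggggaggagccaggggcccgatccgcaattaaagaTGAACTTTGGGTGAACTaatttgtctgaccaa

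The tables give no value per library. Each holds a base mean, the authors' mean of normalized reads over the WT libraries and the libraries of 1 clone, with 10 significant digits. Because reads are whole numbers and the WT libraries enter both tables of a stage, the reads of each library could be recovered for most genes of low and middle level as the set of whole numbers that gives both base means. This held for 22 of the 36 combinations of gene and stage, 4 in naive, 7 in primed, 3 in NPC and 8 in CM cells. The other 14 had too many reads for a single answer, and only the authors' pooled base means are given for them, with no SD and no test. Normalized reads are these reads divided by the authors' size factors. Differences are log2 differences of normalized reads + 1 fitted with limma, and a gene is called where its Benjamini-Hochberg adjusted p, over all genes tested at that stage, is under 0.05. Library numbers below follow the recovered size factors and are not the replicate numbers of the labels. The approximate depth was 34.3 to 39.6 M reads in naive, 15.1 to 18.1 M in primed, 16.1 to 18.6 M in NPC and 17.2 to 19.4 M in CM libraries. The 2 NPC libraries of KO8 stood apart from each other. Over genes with a mean of at least 50, the 90th percentile of the difference between them was 0.73 on the log2 scale, against 0.42 for WT and 0.38 for KO4. In bulk RNA, fewer cells of a type and less RNA per cell cannot be told apart. The targeted gene Zfp512b (chr2:181316808-181327508) had 929 and 977 normalized reads in primed WT libraries, 191 and 219 in KO4, and 184 and 154 in KO8. In CM libraries it had 1117 and 1061 in WT, 184 and 209 in KO4, and 155 and 173 in KO8. It was lower in both clones at both stages, by log2 differences from -2.21 to -2.73, and naive and NPC libraries could not be resolved. The CM reads of Zfp512b are 1 of 3 sets that give its base means, chosen as described for Rara below, and both clones were below WT in 2 of the 3.

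The 4 stages differed most in Rarb, Dhrs3, Cyp26a1 and Cyp26b1. The authors' base means were divided by the total of their table and are given in ppm of that total, first for the table of KO4 and WT and then for that of KO8 and WT. Cyp26b1 (chr6:84521938-84543740) stood at 0.0737 and 0.0873 ppm in naive, 0.212 and 0.303 in primed, 983 and 1023 in NPC, and 7.82 and 10.1 in CM tables. Its NPC level was 4634 and 3372 times its primed level. Rarb (chr14:17263356-17651381) was at 0.126 and 0.111 ppm in naive, 0.338 and 0.229 in primed, 360.4 and 342 in NPC, and 16.5 and 29.6 in CM tables. Dhrs3 (chr4:144482730-144518112) was at 1.04 and 1.36 ppm in naive, 0.875 and 1.06 in primed, 376 and 369 in NPC, and 4.95 and 7.35 in CM tables. These 3 genes were highest where retinoic acid had been added. Cyp26a1 (chr19:37772298-37776018) differed from them in that CM and NPC were of one order, with 0.00902 and 0.0284 ppm in naive, 0.317 and 0.326 in primed, 65.3 and 79.1 in NPC, and 38.8 and 57.7 in CM tables. Retinoic acid, the day of culture and all other differences of the protocols go together here and cannot be told apart.

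**Figure D1:**
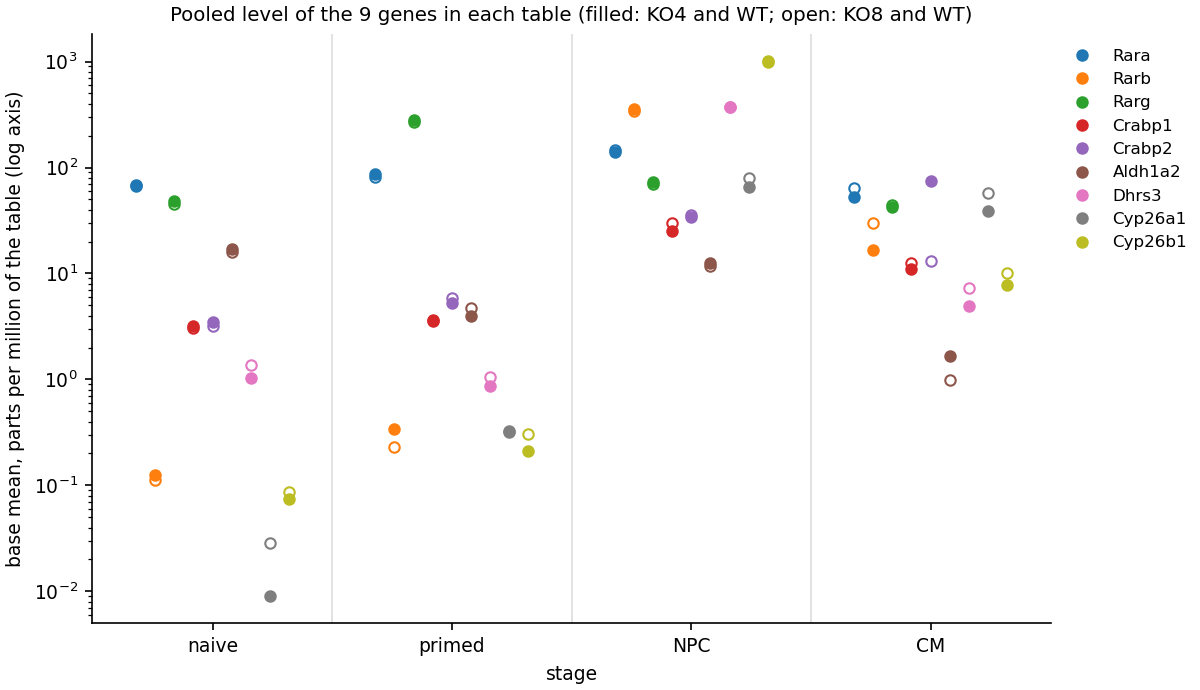
Authors' base mean of each gene in ppm of its table (log axis) at the 4 stages, with the table of KO4 and WT as filled and that of KO8 and WT as open circles. Cyp26b1 rises to 983 and 1023 ppm in NPC tables, Rarg peaks in primed tables, and the circles part most for Crabp2 in CM tables (75.1 against 13.0 ppm).

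The other receptors had another order. Rarg (chr15:102065369-102087948) was at 48.4 and 45.6 ppm in naive, 278 and 269 in primed, 73.2 and 69.4 in NPC, and 42.4 and 44.1 in CM tables, so that the primed state was highest in both tables. Rara (chr11:98789132-98836256) was at 68.7 and 66.2 ppm in naive, 86.2 and 81.6 in primed, 141 and 145 in NPC, and 52.3 and 64.1 in CM tables. Per kilobase of exon, which allows genes to be compared, Rarg was the leading receptor in primed tables, at 67.6 and 65.4 ppm per kb against 18.9 and 17.8 for Rara and 0.103 and 0.0696 for Rarb. Rarb led in NPC tables, at 109 and 104 ppm per kb, against 30.9 and 31.7 for Rara and 17.8 and 16.9 for Rarg. Aldh1a2 (chr9:71063596-71144050) was highest in naive tables, at 16.9 and 16.1 ppm, and was at 4.01 and 4.77 in primed, 12.6 and 11.7 in NPC, and 1.68 and 0.992 in CM tables. The carriers Crabp1 (chr9:54612555-54620917) and Crabp2 (chr3:87752588-87757298) were at 3.06 to 3.65 and at 3.21 to 5.92 ppm in naive and primed tables, and at 24.9 and 30.2 ppm and 34.1 and 35.3 ppm in NPC tables.

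WT libraries alone could be compared only where reads were recovered at both stages, which leaves out the NPC levels of Rarb, Dhrs3, Cyp26a1 and Cyp26b1. Crabp2 was higher in NPC than in CM WT libraries (below), whereas the table of KO4 and WT was higher in CM (75.1 against 34.1 ppm). The CM reads of Crabp2 are 1 of 5 sets that give its base means, chosen as described for Rara below. Over the 5 sets the CM WT mean lay between 143 and 422 normalized reads, and the comparisons of Crabp2 with CM WT libraries rest on that choice. Rarb had 1 and 4 reads in primed WT libraries and 549 and 525 in CM WT libraries, a log2 difference of 7.29 ± 0.49 (SE, limma adjusted p = 4.56e-09). The median gene differed by 0.27 between these stages, and 76% of all genes tested were called. Cyp26b1 had 8 and 5 reads in primed and 296 and 255 in CM WT libraries (5.04 ± 0.60, adjusted p = 2.18e-06). Dhrs3 had 23 and 11 against 158 and 102 reads (2.70 ± 0.40, adjusted p = 2.15e-05). Of the 6 genes tested between CM and primed WT libraries, 5 were higher and 1, Aldh1a2, was lower in CM (-2.39 ± 0.35, adjusted p = 2.03e-05), against 44.8% of all genes called higher and 31.2% called lower. Rarb and Cyp26b1 averaged under 10 normalized reads in primed libraries and passed the filter of a mean of at least 10 only through CM libraries. Their higher level in CM was therefore largely fixed beforehand, and their p-values and their part in this count are a description only. Between NPC and primed WT libraries all 3 genes tested were higher in NPC, Crabp1 by 4.61-fold, Crabp2 by 4.07-fold and Aldh1a2 by 1.73-fold, where 77.4% of all genes tested were called (46.8% of all genes tested were higher) and the median gene differed by 0.36 on the log2 scale. Where leaving out a library leaves 1 in a group, here and in what follows, that library is assumed to vary like the others in the fit. The Aldh1a2 call was lost without NPC WT library 1 (0.69, adjusted p = 0.0705). Aldh1a2 was also higher in NPC than in CM WT libraries (3.18 ± 0.35, adjusted p = 4.71e-06), as was Crabp2 (0.84 ± 0.28, adjusted p = 0.0182), where 56.4% of genes were called (30.8% higher), and Crabp1 differed by 0.41 ± 0.23 (adjusted p = 0.14). Without CM WT library 2 the Crabp1 difference was 0.80 (adjusted p = 0.0109). The Crabp2 call was lost without either NPC WT library (0.76 and 0.93) or without CM WT library 1 (0.45, adjusted p = 0.232). Dhrs3, the only gene tested between primed and naive WT libraries, differed by -0.40 ± 0.34 (adjusted p = 0.312), where 60.9% of genes were called and the median gene differed by 0.70.

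In CM cultures 7 of the 8 genes with recovered reads differed between KO4 and WT, 2 higher and 5 lower, and 2 of 8 between KO8 and WT, both lower. Among all 9679 genes tested the share called was 55.1% for KO4 (23.9% higher, 31.1% lower) and 24.2% for KO8 (12.9% lower), so that a call by itself was common. The median difference over the 8 genes was -0.90 for KO4, against -0.06 over all genes, and -0.05 against -0.01 for KO8. The comparisons of KO4 and of KO8 share their WT libraries at every stage.

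The receptor Rarb had 511 and 518 normalized reads in CM WT libraries, 56.4 and 104 in KO4, and 566 and 551 in KO8. Both KO4 libraries were below all others, while KO8 was slightly above WT. The difference was 6.64-fold lower in KO4 (log2 -2.73 ± 0.23 SE, adjusted p = 3.72e-06) and not called in KO8 (0.12 ± 0.23, adjusted p = 0.756). Rara had 1091 and 1195 normalized reads in WT, 702 and 774 in KO4, and 1197 and 1157 in KO8. KO4 was lower by a log2 difference of -0.63 ± 0.08 (adjusted p = 9.04e-05) and KO8 differed by 0.04 ± 0.08 (adjusted p = 0.748). These Rara reads are 1 of 50 sets of whole numbers that give its base means. They were taken because they carry over 99% of the weight when sets are weighed by the usual spread between replicates, which favours sets with close replicates and makes the SE a low estimate. KO4 was below KO8 in all 50 sets and below WT in 24, and the clones' difference of -439 normalized reads needs no choice of a set. Rarg had 641 and 858 normalized reads in WT, 688 and 863 in KO4, and 838 and 856 in KO8. Its groups overlapped, and neither clone was called (0.06 ± 0.14 and 0.19 ± 0.14, adjusted p = 0.762 and 0.364). The Rarg reads are 1 of 2 sets, and the missing call rests on that choice, since the other set has means of 316 normalized reads in WT, 1208 in KO4 and 1281 in KO8.

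The carriers moved apart in KO4. Crabp2 had 209 and 361 normalized reads in CM WT libraries, 2291 and 2538 in KO4, and 159 and 212 in KO8. Both KO4 libraries were far above the other 4, by 8.76-fold over WT (log2 3.13 ± 0.22, adjusted p = 1.01e-06), and KO8 was not called (-0.58 ± 0.22, adjusted p = 0.0835). Without CM WT library 1 the KO8 difference was called (-0.97, adjusted p = 0.00795). The Crabp2 reads are 1 of 5 sets, and over all 5 the KO4 mean lay between 2277 and 2557 and the WT mean between 143 and 422 normalized reads, with KO4 above WT in all 5 and KO8 below WT in 3. Crabp1 had 216 and 370 normalized reads in WT, 85.2 and 118 in KO4, and 174 and 153 in KO8. It was lower in KO4 (-1.49 ± 0.26, adjusted p = 0.000646) and in KO8 (-0.79 ± 0.26, adjusted p = 0.047), with no KO library as high as either WT library. The WT libraries were far apart, and the KO8 call was lost without WT library 2 (-0.41, adjusted p = 0.307) and without KO8 library 1 or 2 (adjusted p = 0.149 and 0.225).

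Dhrs3 and Aldh1a2, which both act on retinal, changed in opposite directions in KO4. Aldh1a3 (below), which like Aldh1a2 makes retinoic acid, was more abundant than Aldh1a2 in CM WT libraries and went the way of Dhrs3. It had 207 and 157 normalized reads in WT and 53.4 and 48.4 in KO4 (log2 -1.81, limma adjusted p = 0.000181). Whether synthesis of retinoic acid differed was not tested. Dhrs3, which removes retinal, had 147 and 101 normalized reads in CM WT libraries, 49.3 and 58.9 in KO4, and 149 and 135 in KO8. It was 2.24-fold lower in KO4 (log2 -1.16 ± 0.24, adjusted p = 0.00221) and KO8 lay within the range of WT or just above it (0.22 ± 0.24, adjusted p = 0.557). Aldh1a2, which makes retinoic acid, had 13.0 and 25.6 normalized reads in WT, 39.0 and 43.1 in KO4, and 18.8 and 14.3 in KO8. The KO4 difference of 1.12 ± 0.43 just passed the threshold (adjusted p = 0.0482) and was lost without either KO4 library, either KO8 library or WT library 1, where it fell to 0.66 (adjusted p = 0.247).

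Of the enzymes that break down retinoic acid, Cyp26b1 had 276 and 252 normalized reads in CM WT libraries, 14.4 and 21.0 in KO4, and 97.6 and 107 in KO8. The 3 genotypes did not overlap. KO4 was 14.4-fold lower than WT (log2 -3.84 ± 0.25, adjusted p = 6.23e-07) and KO8 2.57-fold lower (-1.36 ± 0.25, adjusted p = 0.0036), which made Cyp26b1 and Crabp1 the 2 genes lower in both clones. Over all 9679 genes tested, 1144 were called in the same direction in both clones, higher or lower. For Cyp26a1 no single set of reads could be chosen in CM libraries. Its base means were 697 for KO4 and WT and 1075 for KO8 and WT, so that the KO4 mean minus the KO8 mean was -696 normalized reads, and KO4 can have been at most 66.7% of KO8, and it was below KO8 in each of the 15 sets that give these base means. Whether either clone differed from WT cannot be read from these values, since KO4 was below WT in 7 of the 15 sets and KO8 in 1.

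**Figure D2:**
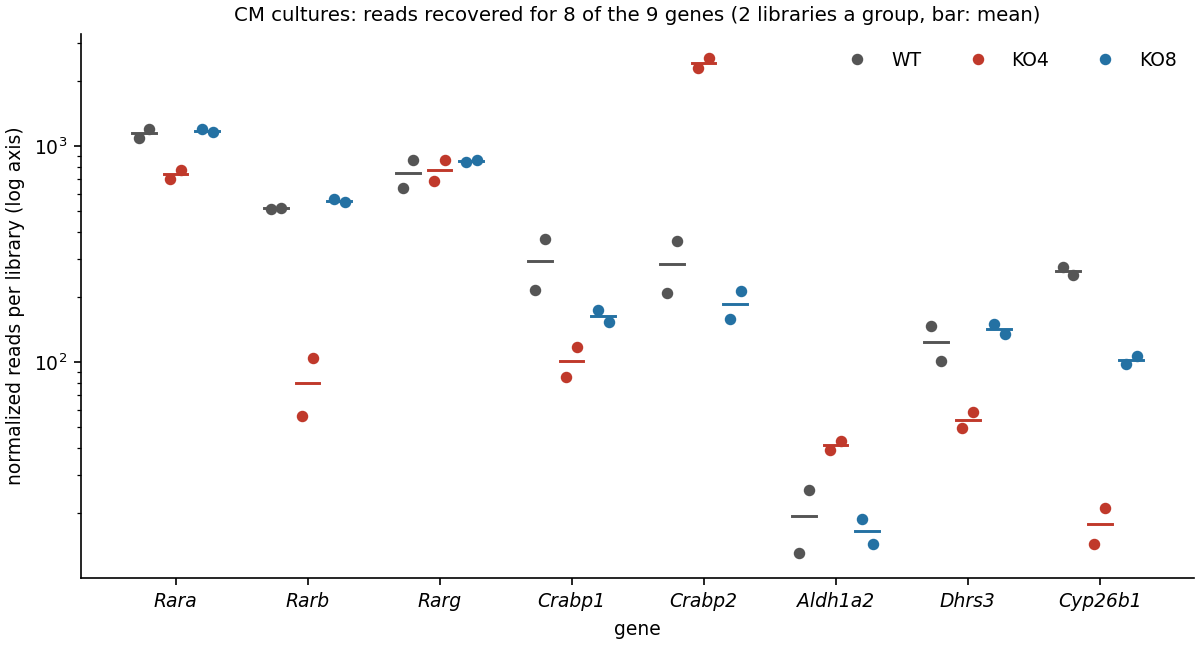
Normalized reads per library (log axis) of the 8 resolved genes in CM cultures, 2 libraries a group as points and their mean as a bar. KO4 lies above WT and KO8 for Crabp2 (2291 and 2538) and Aldh1a2 and below them for Rara, Rarb, Crabp1, Dhrs3 and Cyp26b1, and the groups overlap for Rarg.

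Set against each other without WT, the clones differed in 7 of the 8 genes in CM cultures, 2 higher and 5 lower in KO4, where 54.1% of all genes were called (23.7% higher, 30.4% lower). The largest of these were Crabp2 (3.71 ± 0.22, adjusted p = 2.87e-07), Rarb (-2.85 ± 0.23, adjusted p = 2.45e-06) and Cyp26b1 (-2.48 ± 0.25, adjusted p = 1.51e-05). Crabp1 (-0.70 ± 0.26, adjusted p = 0.041) lost its call without KO4 library 1 or either KO8 library, and Aldh1a2 (1.27 ± 0.43, adjusted p = 0.0293) without any 1 of the KO4 and KO8 libraries. Markers of the cell types in the cultures also differed between the genotypes. The 4 cardiomyocyte markers of 9 with recovered reads summed to between 3651 and 3924 normalized reads in WT libraries, 42.1 and 63.1 in KO4, and 2477 and 2559 in KO8. The 5 of 8 neural progenitor markers summed to between 98.7 and 142 in WT, 6282 and 6421 in KO4, and 234 and 244 in KO8. The sums in WT, KO4 and KO8 were 1210 to 1528, 5403 to 5425 and 959 to 984 for 6 of 6 neuron markers, 2862 to 4259, 179.6 to 359.6 and 5643 to 5742 for 4 of 7 endoderm markers, and 861 to 987, 44.1 to 67.3 and 2678 to 2798 for 2 of 6 endothelial and blood markers. The only fibroblast and smooth muscle marker resolved, Pdgfra, was at 626 to 773, 125 to 226 and 2472 to 2657 normalized reads. Of the stem cell lists, 8 of 8 naive markers summed to 3413 to 3638, 3629.9 to 5102 and 2686 to 2805, and 4 of 6 primed epiblast markers to 1832 to 2278, 4775 to 5293 and 1242 to 1418. The naive markers did not move together against WT. In KO4 3 were called higher and 3 lower, where 55.1% of all genes were called. In KO8 1 was called higher and 6 lower, where 24.2% were. No marker of these 8 lists was at 0 in both CM tables, and the KO4 CM libraries held few reads of the 4 cardiomyocyte markers resolved. The other cardiomyocyte markers were too abundant to be resolved. For them KO4 can have been at most between 60.3% (Myl7) and 71.2% (Myh6) of KO8. The part of these cell types in the differences of the retinoic acid genes was not tested.

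In NPC cultures, which had received retinoic acid, reads were recovered for 3 genes, and 1 of them was called in 1 clone. Crabp1 had 369 and 402 normalized reads in WT libraries, 404 and 503 in KO4, and 545 and 704 in KO8. Both KO8 libraries were above all others, with a log2 difference of 0.68 ± 0.16 (adjusted p = 0.024), where 11.5% of all genes were called in KO8 (7.42% higher) and 7.58% in KO4. The call was lost without either WT library (0.62 and 0.74, adjusted p = 0.209 and 0.116), and KO4 was not called (0.23 ± 0.16, adjusted p = 0.488). Crabp2 had 474 and 534 normalized reads in WT, 589 and 699 in KO4, and 452 and 901 in KO8. The KO8 libraries lay on both sides of all other libraries, and neither clone was called (0.35 ± 0.26 and 0.34 ± 0.26, adjusted p = 0.521 and 0.47). Without KO8 library 1 the KO8 difference was 0.84, a value of 1 library whose spread is not measured, and the fit then took its spread from WT and KO4 alone. Without either KO8 library the spread of the fit was smaller and KO4 was called at the same 0.35 (adjusted p = 0.0279 and 0.0349). Aldh1a2 had 190 and 165 normalized reads in WT, 280 and 216 in KO4, and 274 and 154 in KO8 (0.47 ± 0.27 and 0.21 ± 0.27, adjusted p = 0.378 and 0.679). Without KO8 library 2 the KO8 difference of Aldh1a2 was 0.62, again a value of 1 library. No gene was called between the clones (1.27% of all genes were). The difference of KO4 from KO8 for Crabp2 was -0.49 against KO8 library 2 alone and 0.50 against KO8 library 1 alone, so that its sign depended on the library. Against KO8 library 2 alone it was -0.64 for Crabp1 and 0.67 for Aldh1a2. Neural progenitor markers, 5 of 8 resolved, summed to 397 to 569 normalized reads in WT, 1132 to 1410 in KO4 and 960.4 to 2323 in KO8, and neuron markers, 3 of 6, to 708 to 753, 1309 to 1712 and 1331 to 3100.0. The sums in WT, KO4 and KO8 were 1435 to 1755, 470.2 to 508 and 941 to 1175 for 3 of 6 fibroblast and smooth muscle markers, 167 to 179.8, 101 to 121 and 251 to 266 for 3 of 6 endothelial and blood markers, and 540.4 to 966, 468 to 483 and 579.7 to 668 for 5 of 7 endoderm markers. They were 155 to 252, 164 to 173 and 208 to 233 for 9 of 9 cardiomyocyte markers, of which 1 was at 0, 1458 to 2277, 1385 to 1449 and 2146 to 3674 for 7 of 8 naive stem cell markers, and 916 to 1096, 1192 to 1602 and 1224 to 2031 for 5 of 6 primed epiblast markers. The part of these cell types in the values was not tested.

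The 6 genes too abundant to be resolved in NPC libraries allow only the difference of the clones, with no replicate error. The base means of Rarb were 6068 (KO4 and WT) and 5939 (KO8 and WT), and the KO4 mean minus the KO8 mean was 704 normalized reads, or 11.9% of the mean of both base means. For Cyp26b1, with base means of 16545 and 17755, the difference was -1091 reads or -6.49%. For Dhrs3, with 6339 and 6403, it was 351 reads or 5.62%. For Cyp26a1, with 1099 and 1373, it was -444 reads or -36.7%, and KO4 can have been at most 83.2% of KO8. Rara (2376 and 2514) and Rarg (1232 and 1204) gave -88.0 and 146 reads, or -3.67% and 12.2%. In relation to the level, the difference was largest for Cyp26a1 among these 6. The WT level, unknown here, enters these percentages.

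In stem cells 2 genes were called against WT, Dhrs3 in naive and Aldh1a2 in primed KO4. Dhrs3 had 44.6, 51.0 and 42.9 normalized reads in naive WT libraries, 23.4, 37.6 and 25.0 in KO4, and 52.4, 51.6 and 51.5 in KO8. All 3 KO4 libraries were below all others. KO4 differed from WT by -0.69 ± 0.26 (adjusted p = 0.0405, 25.4% of all genes called, 12.2% lower) and from KO8 by -0.86 ± 0.26 (adjusted p = 0.03, 6.55% called, 5.33% lower), while KO8 differed from WT by 0.17 ± 0.26 (adjusted p = 0.682, 22.8% called). The first call was lost without WT library 1 or 2 or KO4 library 1 or 3 (adjusted p from 0.0754 to 0.161), and the second without KO4 library 1 or 3 or any KO8 library. In primed cells Dhrs3 had 21.9 and 11.0 normalized reads in WT, 11.2 and 16.4 in KO4, and 15.1 and 25.1 in KO8, with overlapping groups and no call. Aldh1a2 had 84.6 and 87.8 normalized reads in primed WT libraries, 53.9 and 50.3 in KO4, and 76.6 and 79.9 in KO8. Both clones were below WT, KO4 by -0.72 ± 0.23 (adjusted p = 0.0226, 19.4% of all genes called, 11.1% lower) and KO8 by -0.14 ± 0.23 (adjusted p = 0.765, 14.5% called). Between the clones it differed by -0.58 ± 0.23 (adjusted p = 0.201, 3.07% called). The KO4 call was lost without any 1 of the WT or KO4 libraries (adjusted p from 0.0519 to 0.133). Crabp1 (64.7 and 75.8 normalized reads in primed WT, 58.0 and 53.3 in KO4, 52.4 and 51.4 in KO8) had both clones below WT with no call (-0.33 ± 0.25 and -0.43 ± 0.25, adjusted p = 0.402 and 0.286). Crabp2 (93.2 and 115.7 in WT, 93.6 and 64.6 in KO4, 94.7 and 105 in KO8) overlapped between the groups (-0.41 ± 0.21 and -0.06 ± 0.21, adjusted p = 0.179 and 0.902).

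**Figure D3:**
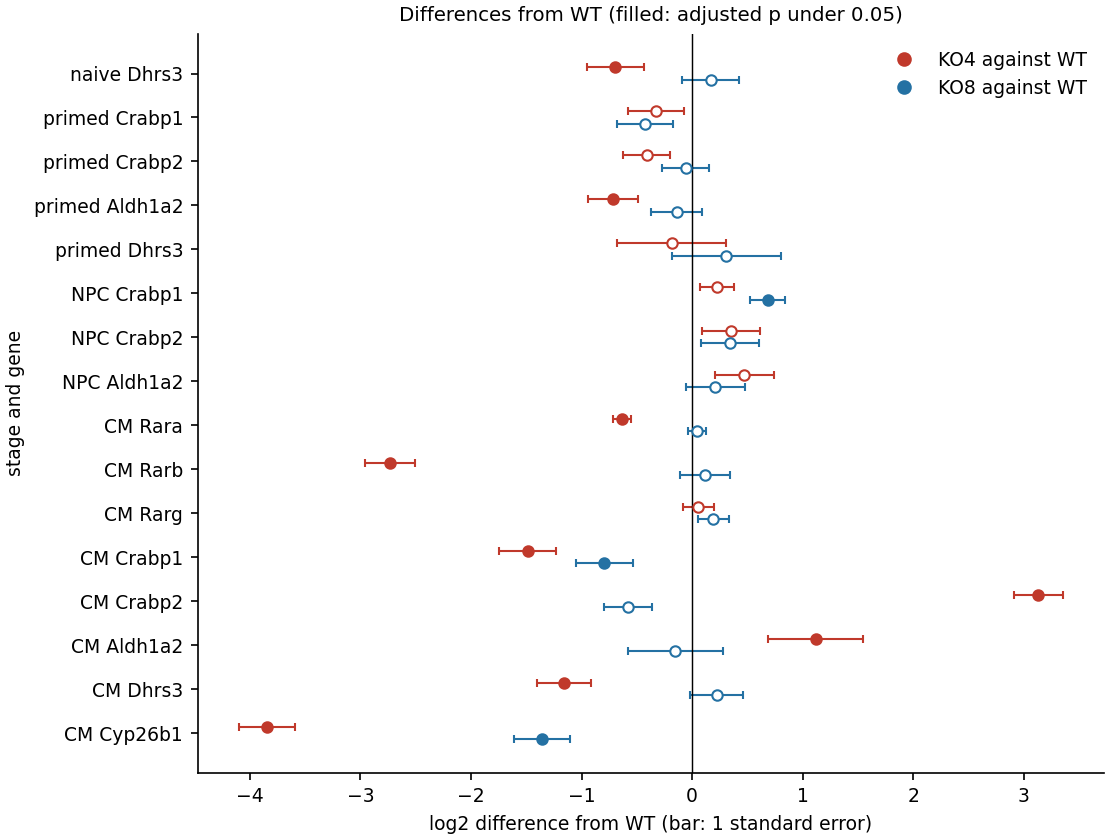
Log2 difference of each clone from WT with 1 standard error, for every gene and stage that was resolved and had a mean of at least 10 normalized reads, filled where the adjusted p was under 0.05. Differences in CM cultures reach -3.84 (Cyp26b1) and 3.13 (Crabp2) in KO4, and all differences at the other stages are between -0.72 and 0.68.

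Rarb, Cyp26a1 and Cyp26b1 were under 10 normalized reads on average in stem cells and were not tested there. Rarb had 3, 0 and 4 reads in naive WT libraries, 2, 12 and 6 in KO4, and 7, 6 and 4 in KO8. In primed libraries it had 1 and 4 reads in WT, 6 and 12 in KO4, and 4 and 6 in KO8. The highest values were in KO4 at both stages, with overlap among the naive groups and between the primed KO4 and KO8 groups. Cyp26a1 had no read in the 3 naive WT libraries, 2, 0 and 0 in KO4, and 1, 2 and 3 in KO8, and 8 and 0, 10 and 4, and 8 and 6 reads in primed WT, KO4 and KO8 libraries. Cyp26b1 had 4, 3 and 3 reads in naive WT, 0, 2 and 4 in KO4, and 0, 7 and 2 in KO8 libraries, and 8 and 5, 0 and 2, and 6 and 2 reads in primed libraries. No difference can be read from so few reads. The 5 genes not resolved in naive libraries had clone differences (KO4 minus KO8) of 198 normalized reads for Rara, 211 for Rarg, 9.98 for Crabp1, 22.1 for Crabp2 and 61.2 for Aldh1a2, between 8.13% and 18.3% of their base means. In primed libraries Rara and Rarg gave 161 and 328 reads, or 11.1% and 6.96%.

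The knockout effect was compared between NPC and CM cultures for the 3 genes resolved at both. For Crabp1 the effect in NPC minus that in CM was 1.71 ± 0.33 in KO4 (adjusted p = 0.00112, 34.3% of all genes called, 20% higher) and 1.48 ± 0.33 in KO8 (adjusted p = 0.00754, 15.6% called, 9.4% higher). For Crabp2 it was -2.78 ± 0.39 in KO4 (adjusted p = 9.31e-05, 14.3% lower) and 0.92 ± 0.39 in KO8 (adjusted p = 0.134). The KO8 value rose to 1.42 without NPC KO8 library 1 and to 1.32 without CM WT library 1, and both passed (adjusted p = 0.00565 and 0.0385). Aldh1a2 gave -0.65 ± 0.49 and 0.36 ± 0.49 (adjusted p = 0.338 and 0.677).

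Other genes of the pathway were counted from 3 lists written by hand. Of 24 genes listed as retinoic acid targets, 17 were tested in CM cultures. KO4 had 2 higher and 9 lower, with a median of -1.59, and KO8 had 7 higher and 3 lower, with a median of 0.73, against medians of -0.06 and -0.01 over all genes. The share called over all genes was 55.1% for KO4 (23.9% higher, 31.1% lower) and 24.2% for KO8 (12.9% lower). No gene of this list was called in the same direction in both clones, and 7 were called in opposite directions: Hoxb2, Hoxb5, Nr2f1, Foxa1, Tgm2, Zfp703 and Tshz1, named after their values were seen. Over all 9679 genes tested 585 (6.04%) were called in opposite directions and 1144 in the same direction. Hoxb2, a hindbrain patterning gene, had 58.7 and 68.1 normalized reads in WT, 4.10 and 4.21 in KO4, and 196 and 204 in KO8. Nr2f1, a nuclear receptor of the COUP-TF family, went the other way, with 121 and 140.1 in WT, 355 and 272 in KO4, and 37.6 and 34.8 in KO8. In NPC cultures 10 genes of the list were tested, with 3 lower in KO4, among them Foxa1 (-0.64) and Stra8 (-1.47), and with Gbx2 and Skida1 higher in KO8 (1.20 and 0.55), where 7.58% and 11.5% of all genes were called. Of the 5 tested in naive cells Zfp703 was higher in both clones (1.16 and 0.72), and of the 9 in primed cells Meis1 was (1.21 and 1.38), with Tgm2 lower in KO8 (-0.81). Over all genes 25.4% and 22.8% were called in naive KO4 and KO8, and 19.4% and 14.5% in primed.

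**Figure D4:**
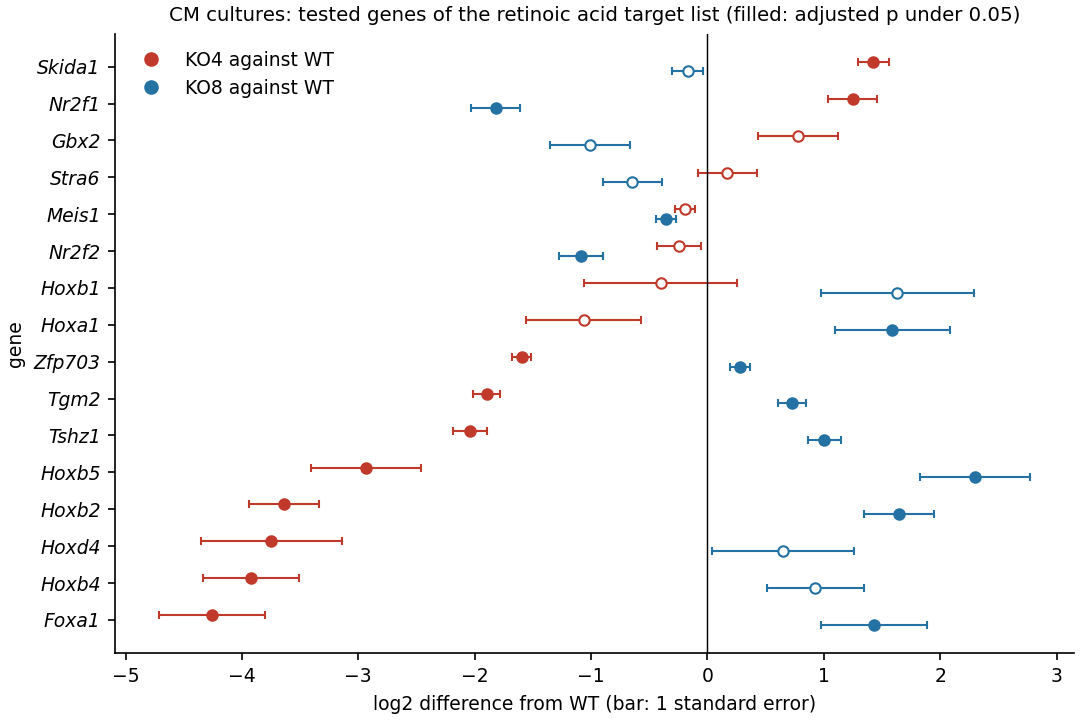
Log2 difference from WT with 1 standard error for 16 of the 17 tested genes of the retinoic acid target list in CM cultures, ordered by KO4 and filled where the adjusted p was under 0.05. Most genes below 0 in KO4, such as Hoxb2 (-3.64), lie above 0 in KO8 (Hoxb2, 1.65), and Nr2f1 shows the reverse (1.25 and -1.82).

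Of 28 other genes of retinoid metabolism and transport in the tables, 14 were tested in CM cultures. Fabp5, a fatty acid binding protein that can carry retinoic acid, was the 1 gene higher in KO4 (1.06), and 3 were lower, among them Aldh1a3 (-1.81) and Rdh14 (-0.89). In KO8 4 were lower, among them Aldh1a3 (-2.07), Cyp1b1 (-2.36) and Cyp26c1 (-1.71). These 4 calls in each clone stand beside 55.1% of all genes called in KO4 and 24.2% in KO8. Aldh1a3, which like Aldh1a2 makes retinoic acid, had 207 and 157 normalized reads in WT, 53.4 and 48.4 in KO4, and 37.6 and 47.1 in KO8. Both clones were below WT with no overlap (adjusted p = 0.000181 for KO4 and 0.000402 for KO8). At the other stages Adh1 (-2.88) and Aldh1a3 (-1.05) were lower in naive KO4 among 5 tested, where 12.2% of all genes were lower. Cyp1b1 was higher (1.73 and 2.00) in both primed clones and Dhrs4 was lower in primed KO4 (-0.35) among 11 tested, where 19.4% (KO4) and 14.5% (KO8) of all genes were called. Lrat was higher in NPC KO4 (1.14) among 16 tested, where 7.58% were called. Of 14 RXR partners and coregulators, reads were recovered for 1 in naive, 7 in primed, 3 in NPC and 3 in CM libraries. Crebbp (0.24) and Nrip1 (0.53) were higher in primed KO8 among 7 tested, where 14.5% of all genes were called, and none of 2 was called in NPC. Rxrg was higher (0.89) and Ncoa1 lower (-0.57) in CM KO4 among 3 tested, where 55.1% of all genes were called.

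The genes most like each of the 9 over the 8 base means (log2 ppm, 11493 genes with a mean of at least 100) were Ell and N4bp2l2 for Rara, 1810026B05Rik and Uvssa for Rarb, Mrps26 and Uri1 for Rarg, Fam174b and 1810026B05Rik for Crabp1, Emx2 and Phf6 for Crabp2, Vars2 and Arl14ep for Aldh1a2, Tmem200b and Agbl5 for Dhrs3, Pfkfb3 and Serf1 for Cyp26a1, and Fam168a and Tec for Cyp26b1. Pearson's r was between 0.988 for Phf6 and 0.999 for Fam168a. The 8 points are 4 stages with shared WT libraries, so that any gene with the same order of stages has a high r. The measure ignores size, as Fam168a ranged from 45.6 to 193 ppm where Cyp26b1 ranged from 0.0737 to 1023.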

How the data were processed

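RNA of 27 libraries in 12 groups was sequenced, and groups were taken from the sample labels. Per the paper and the submitters' processing notes, the authors used Trim Galore 0.6.7 for trimming, HISAT2 2.2 for alignment (mm9) and featureCounts for counts per gene (strand and multiple-match settings are not given in the sources used here), and DESeq2 1.46.0 to compare each clone with WT. The values used here are the deposited base mean, a signal that the authors computed as the mean of reads divided by size factors over the libraries compared. The 5 further columns of each table (log2 fold change, its error, test statistic, p-value and adjusted p) hold the authors' comparisons and were not used.

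A base mean is a sum of whole reads times 1 unit per library, given with 10 significant digits. Units were read from genes with 1 or 2 reads and refined by least squares. Libraries in both tables of a stage are WT, those in 1 table the clone. For each gene all sets of non-negative whole reads that give both base means were enumerated, unless over 200 sets were expected by chance. One set was found for 13329 naive, 20402 primed, 19156 NPC and 19213 CM genes. A further 898, 855, 1236 and 1334 genes had several sets of which 1 carried at least 99% of the weight under the replicate spread (t with 3 degrees of freedom). This rule and the limits tried (30, 200, 500 and 2000) were settled after sets for some of the 9 genes had been seen. As a check, each table was solved alone for genes with base means under 2, and WT reads were the same in both tables for all 2207, 1987, 1878 and 1662 such genes (100%). Among library values of 1 to 10 reads, 62.2% to 65.8% were even, for a cause that was not tested, so that single reads may not be independent. The recovery and the fits were tested on simulated data.

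Reads were divided by the authors' size factors. limma 3.58.1 (R 4.3.3) with a trend was fitted to log2(normalized reads + 1) over genes with a mean of at least 10, with all 3 genotypes of a stage in 1 fit and Benjamini-Hochberg adjustment over all genes tested (2778 naive, 9282 primed, 9606 NPC, 9679 CM). Fold changes are on this scale and understate those of low genes. Recovery fell with the level: where the base mean reached 10, 2737 of 13719 genes were recovered in naive, 9273 of 13224 in primed, 9539 of 14356 in NPC and 9596 of 14258 in CM, and the highest base means recovered were 101, 1208, 1366 and 2647, so that the most strongly expressed genes are not in the fits. A call is an adjusted p under 0.05. The labels do not say that libraries came from separate cultures, and p-values measure the spread between them. Comparisons between stages were planned over all 27 libraries but fitted on the stages compared, since few genes were recovered in all. Alternatives were scaling by totals or outside chromosomes 8 and Y, pseudocounts of 0.5 and 5, no filter, voom, 2 genotypes in the fit, each library left out, and, added after seeing the data, only genes with 1 set. The genes named are the 9, Zfp512b, list genes called in both clones in 1 direction (up to 3 per list and stage), the 2 genes most like each of the 9, and list members where a count is 5 or fewer. A few list genes that these rules name are counted but not reported here by name or value. The genes, lists and tests were chosen with earlier results of these data known. Python 3.11.15, numpy 2.4.6, pandas 2.3.3, scipy 1.17.1, numba 0.67.0 and matplotlib 3.10.9 were used.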

Additional observations from a re-analysis of the deposited data

Results flagged for a closer look

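The knockout effect differed between NPC and CM cultures by a test of the difference itself for Crabp1 in KO4 (1.71 on the log2 scale) and in KO8 (1.48) and for Crabp2 in KO4 (-2.78). Crabp1 was lower than WT in CM and not lower in NPC cultures in both clones, and Crabp2 in KO4 was 8.76-fold higher than WT in CM cultures and differed by 0.35 in NPC cultures. The CM call of Crabp1 in KO8 was lost under several alternatives (below) and when single libraries were left out. The stages also differ in medium, day and cell types, which cannot be told apart. Groups of 2 or 3 libraries are too small for a test of single outlying libraries.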

How the results depend on the processing

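No paired analysis was possible because recovered libraries carry no replicate number, so that no replicate block could be fitted. The 9 KO4 calls of the 9 genes over all stages ranged from 8 to 10 when 1 library was left out, the 3 KO8 calls from 2 to 4, the 8 calls between the clones from 6 to 11, the 11 calls between WT stages from 9 to 12, the 3 differences between NPC and CM from 3 to 4, the 49 list calls from 42 to 66, and Zfp512b kept 4. Without a filter 5 calls between the clones were left, and KO4 and KO8 had 6 and 2 calls against WT. With only genes with 1 set, Zfp512b had 2 calls, since its CM reads are 1 of 3 sets, and Rara, Rarg and Crabp2 in CM could not be tested. The median log2 ratio of NPC over primed base means of the 9 genes was 2.93 in ppm and 2.65 with tables scaled by the median of ratios. Of 1361 values recomputed for single genes, 1297 kept their side of the threshold and 1 changed sign and was then called, the NPC difference between the clones for Crabp2, which was 0.01 with no call and became -0.49 without KO8 library 1 (0.50 without KO8 library 2). Both are values of a lone KO8 library, assumed to vary like the other groups. A further 21 differences changed sign with no call either way. Naive Dhrs3 in KO4 lost its call with the 2 genotypes alone, without a filter or scaled outside chromosomes 8 and Y (adjusted p from 0.0507 to 0.0751), primed Aldh1a2 without a filter (0.0552), CM Aldh1a2 in KO4 with a pseudocount of 0.5, without a filter or with 2 genotypes (0.0526 to 0.0859), and CM Crabp1 in KO8 with a pseudocount of 0.5, without a filter or scaled outside chromosomes 8 and Y (0.0514 to 0.114). Between the clones, naive Dhrs3 lost its call scaled by totals or outside chromosomes 8 and Y or without a filter (adjusted p from 0.0524 to 0.0735). CM Crabp1 lost its call between the clones with totals, without a filter or with voom (0.0577 to 0.0918), and CM Aldh1a2 without a filter (0.058). The CM calls of Rarb, Crabp1, Dhrs3 and Cyp26b1 in KO4 against WT held under every alternative run. Those of Rara and Crabp2 were kept wherever they could be tested, but each such alternative used the same chosen set of reads. These alternatives therefore could not test that choice. KO4 was below WT in 24 of the 50 sets for Rara and above WT in all 5 sets for Crabp2. The cause of these changes was not tested. Depth limits Rarb and both Cyp26 genes in stem cells, and high counts limit 14 of the 36 combinations of gene and stage.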
